A study of Mus musculus with 14 samples.

Results

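The genes described here are 10 genes that cells switch on within minutes of a stimulus or of a rise in temperature. The 8 immediate early genes are Fos, Fosb, Jun, Junb, Egr1, Atf3, Ier2 and Dusp1, and the 2 heat shock genes are Hspa1a and Hspa1b. They were chosen by gene symbol, and all 10 were rows of both the liver table (19660 genes) and the kidney table (20203 genes), out of 22263 genes in either table. After a filter on low counts, 9 of the 10 were tested in each tissue; Fosb did not pass the filter in either.

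RNA came from the liver and kidney of male mice, 12 weeks old, with a transgene of the human angiotensinogen gene in its -6A haplotype (labelled Hap -6A). Every mouse carried this transgene, so there was no group without it. One group of each tissue had a normal diet and the other a high salt diet; the labels give neither the salt content nor its duration. The 14 libraries fell into 4 groups, with 4 libraries for each diet in liver and 3 in kidney. Normal diet liver libraries are numbered 1 to 4, high salt liver libraries HS5 to HS8 after their columns, and kidney libraries 1 to 3 in each diet. The labels do not say which libraries came from the same animal, so p-values measure the spread between these libraries.

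Immediate early genes are transcribed without new protein synthesis, from factors such as CREB and the serum response factor that signalling kinases modify in place. Fos, Fosb, Jun and Junb encode subunits of the transcription factor AP-1, Egr1 and Atf3 encode other transcription factors, Ier2 encodes a nuclear protein, and Dusp1 encodes a phosphatase that switches off MAP kinases. Hspa1a and Hspa1b encode nearly identical inducible HSP70 chaperones, which heat shock factor 1 switches on when proteins unfold. In liver and kidney these genes are known to respond to injury, stress hormones, lack of blood flow and the removal of the tissue itself.

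The promoters of 5 members that hold matches to known regulatory elements are shown. Atf3, which held a match to the core of the cyclic AMP response element, is not printed. Each sequence is the 250 bases before the gene's start in RefSeq (GRCm38.p6), 5′ to 3′ on the gene's strand. The table used here matched 8 of the 10 members, all but Egr1 and Ier2. Hspa1a (chr17:34972157-34972406), Hspa1b (chr17:34959239-34959488), Jun (chr4:95052223-95052472) and Dusp1 (chr17:26508473-26508722) lie on the minus strand, and Fos (chr12:85473640-85473889) on the plus strand. Capitals mark a heat shock element (GAANNTTC or TTCNNGAA) in Hspa1a, Hspa1b and Jun, the core TGACGT or the full TGACGTCA of the cyclic AMP response element in Dusp1, and the core TGACGT followed by a TATA box (TATAAA) in Fos.
Hspa1a: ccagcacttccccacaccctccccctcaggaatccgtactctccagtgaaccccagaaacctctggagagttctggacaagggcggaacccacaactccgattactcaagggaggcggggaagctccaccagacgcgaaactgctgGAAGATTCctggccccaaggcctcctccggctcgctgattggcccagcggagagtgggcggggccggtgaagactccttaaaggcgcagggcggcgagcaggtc
Hspa1b: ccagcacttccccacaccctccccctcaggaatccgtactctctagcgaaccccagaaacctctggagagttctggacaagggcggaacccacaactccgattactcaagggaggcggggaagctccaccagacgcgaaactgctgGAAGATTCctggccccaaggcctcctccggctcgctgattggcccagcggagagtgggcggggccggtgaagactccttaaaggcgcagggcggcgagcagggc
Jun: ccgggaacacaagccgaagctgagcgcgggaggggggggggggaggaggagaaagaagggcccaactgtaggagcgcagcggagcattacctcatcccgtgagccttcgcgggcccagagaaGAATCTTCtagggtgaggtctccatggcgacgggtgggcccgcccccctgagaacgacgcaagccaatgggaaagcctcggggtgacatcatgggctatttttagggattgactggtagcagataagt
Dusp1: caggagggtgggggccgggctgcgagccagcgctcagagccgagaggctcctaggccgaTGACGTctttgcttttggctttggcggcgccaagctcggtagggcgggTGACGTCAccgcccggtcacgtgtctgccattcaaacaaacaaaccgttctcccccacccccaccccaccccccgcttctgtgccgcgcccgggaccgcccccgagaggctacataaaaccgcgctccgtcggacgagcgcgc
Fos: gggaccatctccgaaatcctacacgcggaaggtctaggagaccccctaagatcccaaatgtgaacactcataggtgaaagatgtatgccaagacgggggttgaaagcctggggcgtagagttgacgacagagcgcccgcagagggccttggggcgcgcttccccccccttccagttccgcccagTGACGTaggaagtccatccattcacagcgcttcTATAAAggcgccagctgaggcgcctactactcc

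Both strands were searched. A heat shock element of this spelling stood in 3 of the 8 matched members and in 12.8% of 32851 promoters of the same length. The cyclic AMP response core stood in Fos, Dusp1 and Atf3 and in 6.47% of promoters, the full element (which contains the core) in Dusp1 and in 1.55%, and TATAAA in Fos and in 12.4%. The AP-1 site TGANTCA (6.75% of promoters) and the CArG box bound by serum response factor (1.47%) had no match in these windows of the 8 members. A match describes the letters and is not a measured binding site. The Hspa1a and Hspa1b promoters were identical at 247 of 250 bases. The differences, Hspa1a first and counted from the first printed base, were C44T, T47C and T249G. Their coding sequences in GENCODE M21, 1926 and 1929 bases long, were identical at 99.43% of 1929 aligned positions, with an identical run of 638 bases. Reads within such a run cannot be assigned to 1 of the 2 genes, so the split between them rests on the authors' expectation-maximisation step. Their sum is given beside them within each tissue.

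Liver libraries held 37267778 to 51487382 gene counts and kidney libraries 16046094 to 22004927. Values below are CPM (counts per 1000000) on TMM-scaled library sizes within a tissue. A gene at 0 is only known to lie under 3 counts, which is 0.053 to 0.0943 CPM in liver and 0.134 to 0.189 CPM in kidney. Some libraries stood apart from the rest of their group. Mitochondrial transcripts took 2.30% and 2.06% of the counts of normal diet liver libraries 1 and 2, against 11.3% to 29.6% in the other 6 liver libraries. Normal diet liver library 4 had a summed level of 61636 CPM over 8 acute phase genes, against 2984 to 5619 CPM in the other normal diet libraries and 1673 to 2277 CPM on high salt. The same library had 59.4 CPM over 7 measured neutrophil markers of 8 listed (Camp was at 0 or not among the rows), against 1.40 to 2.72 CPM in the other liver libraries. Its macrophage markers (8 of 8) summed to 253 CPM, against 80.1 to 176 CPM. Libraries HS5 and HS6 were closer to each other than any other pair of the same diet, with a chi-square per gene of 1.59 against 9.83 to 62.8 in the 11 other liver pairs. The labels do not say whether they come from 1 animal; with both summed to 1 library, 12 genes in place of 152 were called by diet in liver, and still 0 members. In kidney, mitochondrial transcripts took 23.5% to 41.2% of counts, the most in normal diet library 1. That library had a chi-square per gene of 48.2 against each of the other 2 of its diet, which had 4.19 between them. Without it 2627 genes in place of 318 had an unadjusted p under 0.05 by diet in kidney, and 0 genes and 0 members were called by edgeR either way. Summed levels of 6 hepatocyte markers were 52245 to 77715 CPM in normal diet livers and 89575 to 106687 CPM in high salt livers. Only 2 of these 6 were higher on high salt in the edgeR fit, with a median log2 fold change of -0.17 over the 6. Summed levels of 6 kidney tubule markers were 3368 to 5364 CPM over the kidney libraries. Other marker sums also lay apart between diets. In liver, stellate and fibroblast markers (8 of 8) were at 77.2 to 137 CPM in normal diet and 146 to 173 CPM in high salt libraries, and erythroid markers (5 of 5) at 724 to 1936 and 271 to 720 CPM. In kidney, cardiac and skeletal muscle markers (4 of 6, as Acta1 and Ckm were at 0 or not among the rows) were at 3.27 to 5.19 and 0.567 to 0.937 CPM. Their part in the member values was not tested. In bulk tissue, fewer cells of a type and less RNA per cell cannot be told apart.

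In the liver, Fos, Jun, Junb, Atf3 and Dusp1 were highest in 1 normal diet library, which stood far above the next of its diet for Fos, Jun and Junb. None of the 9 tested members was called by diet in the edgeR fit. Fos, the partner of Jun proteins in AP-1, was at 0.19, 0.272, 0.314 and 1.32 CPM in normal diet libraries 1 to 4. In HS5 to HS8 Fos was at 0.479, 0.476, 0.561 and 0.459 CPM. Library 4, with 55 counts (95% Poisson interval 0.995 to 1.72 CPM), lay above every other library, and the other 3 normal diet libraries lay below all 4 high salt libraries. Those 3 held only 8 to 10 counts each, and their intervals overlapped those of all 4 high salt libraries. Jun, the AP-1 subunit that also binds DNA as a pair with itself, was at 2.75, 4.06, 4.31 and 18.5 CPM on the normal diet. On high salt Jun was at 5.09, 5.88, 7.41 and 7.81 CPM. As for Fos, library 4 was highest and the other normal diet libraries were below every high salt library.

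Junb, an AP-1 subunit with weaker activation than Jun, was at 3.64, 3.19, 1.41 and 15.9 CPM on the normal diet. On high salt it was at 2.27, 2.49, 2.99 and 7.77 CPM. Library 4 and library HS8 were thus the highest of their diets, and the remaining libraries of both diets overlapped. Egr1, a zinc finger factor, had the same 2 libraries on top. It was at 0.951, 2.04, 1.19 and 7.71 CPM in normal diet libraries 1 to 4. In HS5 to HS8 it was at 2.68, 2.63, 2.99 and 8.09 CPM. The highest normal diet library stood 4.20-fold above the next of its diet for Fos, 4.30-fold for Jun, 4.39-fold for Junb and 3.77-fold for Egr1. HS8 stood 2.60-fold above the next high salt library for Junb and 2.70-fold for Egr1.

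Fosb, a close relative of Fos that is silent in most resting tissue, had 0, 0, 1 and 5 counts on the normal diet and 9, 10, 13 and 8 counts on high salt. Its levels were thus at most 0.12 CPM on the normal diet and 0.141 to 0.27 CPM on high salt. Its high salt libraries all lay above its normal diet libraries, a separation in either direction that 12.5% of the liver genes tested showed, but Fosb was too low for the test. With no filter on low counts its adjusted p in edgeR's quasi-likelihood test was 0.205.

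Atf3, Ier2 and Dusp1 did not stand far out in library 4, although Atf3 and Dusp1 were highest there. Atf3, a factor induced by many stresses, was between 0.856 and 1.56 CPM on the normal diet and between 1.13 and 1.43 CPM on high salt. Ier2 was between 5.16 and 10.3 CPM on the normal diet and between 5.78 and 11.7 CPM on high salt, with HS8 the highest of the 8 libraries. Dusp1 had the highest mean CPM of the members in liver on both diets and spread widely within both. In single libraries Hspa1b lay above it in HS5 and HS6, and Ier2 in normal diet library 1. Dusp1 was at 5.09, 35.3, 38.3 and 49.4 CPM in normal diet libraries 1 to 4. In HS5 to HS8 it was at 9.17, 8.35, 30.2 and 44.2 CPM. Library 1 and the similar pair HS5 and HS6 were low, so the low libraries came from both diets.

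The 2 heat shock genes had another order of libraries. Hspa1a was at 0.0825, 0.0389, 0.54 and 0.475 CPM in normal diet liver libraries 1 to 4, where libraries 1 and 2 hold under 4 counts each. In HS5 to HS8 it was at 1.55, 1.53, 0.874 and 0.393 CPM. HS8 overlapped normal diet libraries 3 and 4. Hspa1b was at 1.45, 2.08, 13.0 and 5.46 CPM on the normal diet and at 9.28, 11.0, 10.4 and 3.37 CPM on high salt. Normal diet library 3 was the highest, libraries 1 and 2 the lowest, and HS8 lay among the normal diet libraries. Libraries 1 and 2 are those with the low mitochondrial share; the part of that share in the heat shock values was not tested.

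**Figure D1:**
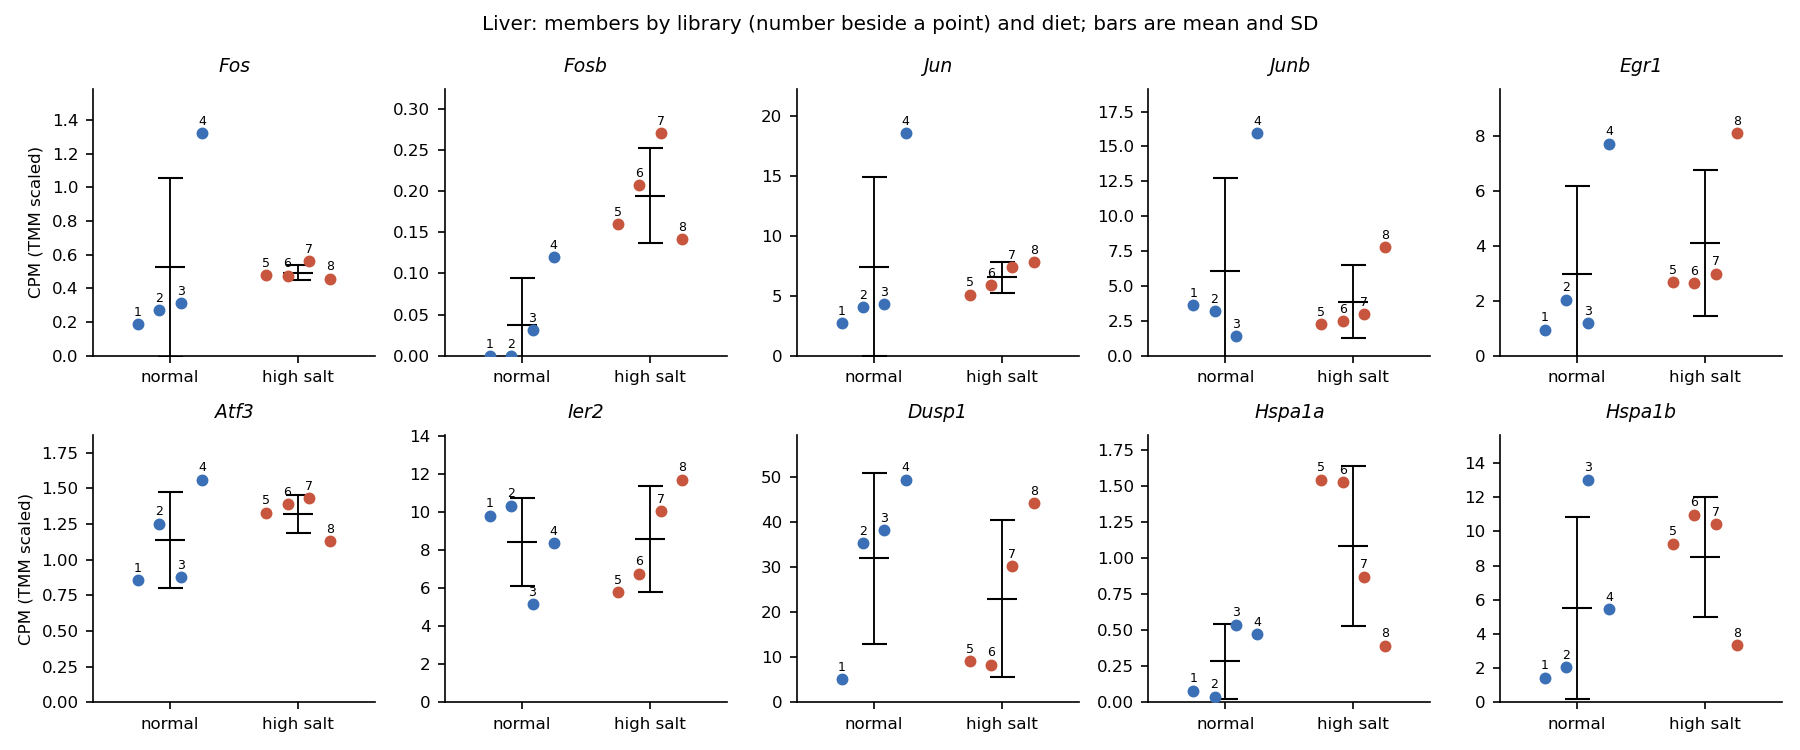
CPM (TMM scaled) of the 10 members in the 8 liver libraries by diet, 1 panel per gene with its own axis from 0; points are libraries with their numbers, and black bars are the mean and SD, cut at 0. Normal diet library 4 is the highest point for Fos (1.32), Jun (18.5), Junb (15.9), Atf3 (1.56) and Dusp1 (49.4), and HS8 is highest for Egr1 (8.09).

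No member passed the test of diet in liver. With edgeR's quasi-likelihood test and Benjamini-Hochberg adjustment over 15130 genes, 0 of 9 members were called at an adjusted p under 0.05, against 1% of all genes. The smallest adjusted p was 0.182, for Hspa1a, with a log2 fold change of 1.97 (SE 0.742, unadjusted p 0.0244). Mean Hspa1a levels were 0.284 ± 0.26 CPM (normal diet) and 1.09 ± 0.558 CPM (high salt; SD, n = 4 each). The same fold change was 0.64 for Hspa1b (SE 0.632, adjusted p = 0.575) and 0.73 for the summed pair (SE 0.633, adjusted p = 0.518). Without normal diet libraries 1 and 2 the edgeR value was 1.10 for Hspa1a and -0.11 for Hspa1b.

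The immediate early members had log2 fold changes from -0.64 (Junb, SE 0.69) to 0.46 (Egr1, SE 0.66), with adjusted p-values of 0.606 and 0.712 in the edgeR fit. The values of Fos, Jun, Junb and Egr1 rested on single libraries. Without normal diet library 4, Fos went from -0.10 to 0.93, Jun from -0.18 to 0.81, Junb from -0.64 to 0.48 and Egr1 from 0.46 to 1.54, with adjusted p-values of 0.119, 0.0807, 0.534 and 0.0927 in edgeR. Without HS8, Egr1 was at -0.11 and Junb at -1.23. Voom with sample weights, an analysis that gives less weight to libraries far from their group, called 3 of the 9 members: Fos at 0.89 (adjusted p = 0.0396), Hspa1a at 4.09 (adjusted p = 0.0017) and Hspa1b at 2.17 (adjusted p = 0.00372). It called 8284 of all 15130 genes tested, a larger share than that of the members, against 152 in the edgeR fit.

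**Figure D2:**
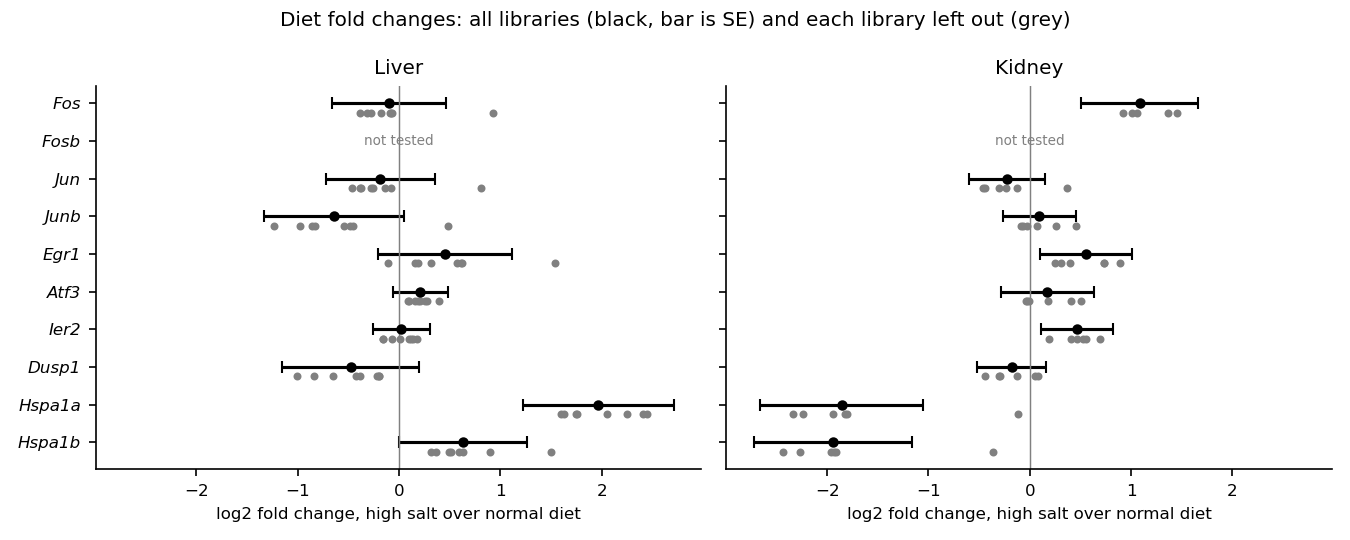
Log2 fold change of each member, high salt over normal diet, in liver (left) and kidney (right) from edgeR; black points are all libraries with their SE, and grey points leave out 1 library each. In liver the grey points of Fos, Jun and Junb on the right side of 0 (0.93, 0.81 and 0.48) leave out normal diet library 4, and in kidney those of Hspa1a and Hspa1b nearest 0 (-0.12 and -0.36) leave out normal diet library 3.

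To see whether single libraries carried the members, each gene was counted in a library that exceeded every other library of its tissue and diet by more than 2-fold. In liver this held for 4 of the 9 tested members in normal diet library 4 (Fos, Jun, Junb and Egr1), against 2.86% of all genes tested. It held for 2 in HS8 (Junb and Egr1), against 0.734%, and for 1 in normal diet library 3 (Hspa1b), against 1.74%. No member met it in normal diet libraries 1 (0.33% of genes) and 2 (0.251%), HS5 (0.0198%), HS6 (0.00661%) and HS7 (1.33%). HS5 and HS6, being so alike, could hardly exceed each other. On the lower side, Hspa1a and Hspa1b lay more than 2-fold below every other high salt library in HS8, against 0.674% of genes. The same held for Dusp1 in normal diet library 1 (1.1% of genes) and Junb in normal diet library 3 (1.34%).

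Other immediate early genes from a list of 46, 39 of them tested in liver, included 9 that met the same criterion in normal diet library 4. Of all genes tested, 2.86% met it there. The 9 genes were Fosl2, Ier3, Zfp36, Gadd45b, Gadd45g, Nfkbiz, Nfkbia, Socs3 and Cebpd. Fosl2, another AP-1 subunit, was at 12.6 CPM there against 1.66 to 4.34 CPM in libraries 1 to 3. Socs3, an inhibitor of cytokine signalling, was at 33.4 CPM against 3.54 to 6.30 CPM. Library 4 was the highest of the 8 liver libraries for 18 of the 39 genes (46.2%), against 17.5% of all genes tested. All 8 acute phase genes, which the liver makes under cytokine signals, met the criterion in library 4, as did 1 of 31 heat shock response genes, Hmox1 (heme oxygenase), at 63.3 CPM against 6.35 to 13.3 CPM. The part of the acute phase, neutrophil and macrophage signal in the immediate early values was not tested.

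Normal diet liver library 3 was the highest of the 8 libraries for 18 of the 31 heat shock response genes (58.1%), against 11.2% of all genes tested. Hsph1 and Hspa4l of that list met the criterion, against 1.74% of all genes tested. So did Acta2 and Myh11, 2 of 3 tested smooth muscle markers, whose part was not tested. Hsph1, a nucleotide exchange factor of HSP70, was at 106 CPM there against 20.5, 19.8 and 51.9 CPM in libraries 1, 2 and 4. Library 3 also had the largest mitochondrial share of the liver libraries (29.6%), whose part was not tested. In HS8, 2 of the 39 other immediate early genes met the criterion (Zfp36 and Ccn1), against 0.734% of all genes tested. In HS7 there were 4 (Myc, Gadd45g, Socs3 and Phlda1), against 1.33%, with Myc at 29.5 CPM against 1.14 to 1.47 CPM in the other high salt libraries. More than 2-fold below the other high salt libraries lay Gadd45b and Sgk1 in HS7 and Maff in HS8.

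In the kidney, 1 normal diet library held far more HSP70 transcript than the other 5. Hspa1a was at 2.51, 4.84 and 29.3 CPM in normal diet libraries 1 to 3 and at 3.79, 3.24 and 3.11 CPM in high salt libraries 1 to 3. Hspa1b was at 5.41, 14.6 and 69.2 CPM on the normal diet and at 7.75, 7.50 and 7.99 CPM on high salt. Library 3 was highest for both, and normal diet libraries 1 and 2 lay on either side of the high salt libraries for Hspa1b. For the sum of the pair, library 3 held 98.5 CPM (2036 counts, 95% Poisson interval 94.3 to 103 CPM) and the other libraries 7.92 to 19.4 CPM. High salt libraries differed little among themselves, at 11.1 ± 0.4 CPM (SD, n = 3) for the sum.

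Jun was also highest in normal diet library 3 of the kidney. It was at 9.13, 9.59 and 23.6 CPM on the normal diet and at 13.6, 10.5 and 12.4 CPM on high salt. Its usual partner Fos did not share this. Fos was at 0.299, 0.351 and 0.532 CPM on the normal diet and at 1.29, 0.881 and 0.363 CPM on high salt, on 6 to 29 counts per library. Egr1 was at 1.90, 4.39 and 4.35 CPM on the normal diet and at 6.29, 6.86 and 2.5 CPM on high salt. For Fos and Egr1 high salt libraries 1 and 2 were the highest, and high salt library 3 lay within the normal diet range.

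The remaining kidney members overlapped between diets. Junb ranged from 1.95 to 3.92 CPM in normal diet kidneys and from 2.14 to 3.48 CPM in high salt kidneys, and Atf3 from 0.799 to 1.50 CPM and from 0.669 to 1.64 CPM. In the same order, Ier2 ranged from 1.05 to 2.32 CPM and from 2.28 to 2.71 CPM, and Dusp1 from 9.48 to 21.0 CPM and from 9.36 to 16.5 CPM. The overlap was smallest for Ier2, where 1 normal diet library reached into the high salt range. Fosb had 0 to 2 counts per normal diet library and 2 to 5 per high salt library, at or near the floor of 3 counts.

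**Figure D3:**
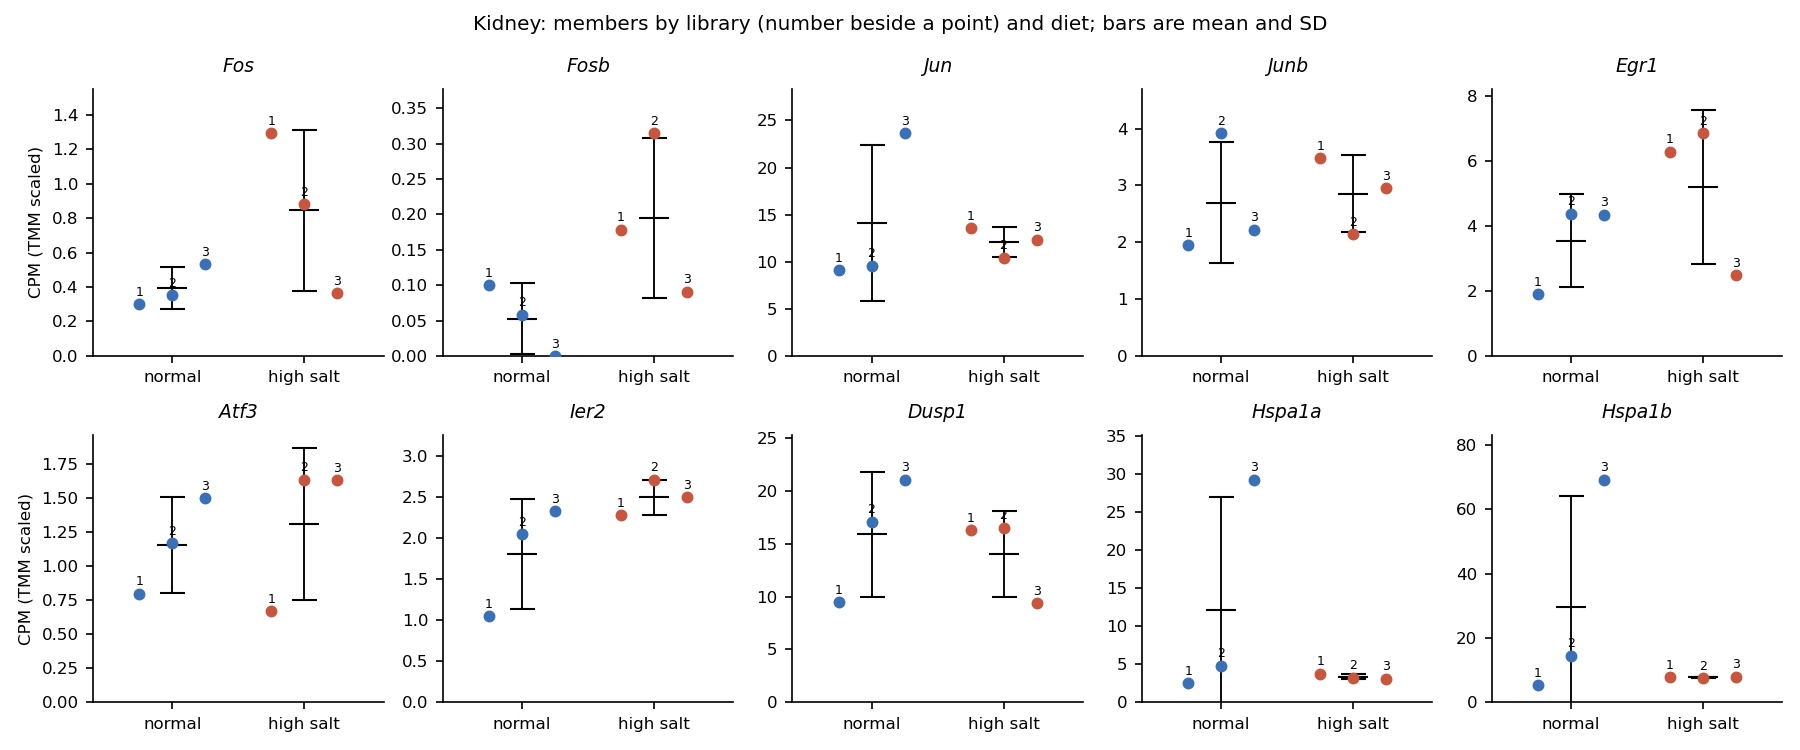
CPM (TMM scaled) of the 10 members in the 6 kidney libraries by diet, drawn as for liver with its own axis from 0 in each panel; black bars are the mean and SD, cut at 0. Normal diet library 3 stands alone for Hspa1a (29.3), Hspa1b (69.2) and Jun (23.6), while the 3 high salt libraries of Hspa1b lie between 7.50 and 7.99.

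No member passed the test of diet in kidney either. In the edgeR fit 0 of 9 were called, against 0% of all 15847 genes, where 318 genes had an unadjusted p under 0.05 and DESeq2 called 11 genes and no member. Diets did not overlap for 0 of the 9 members, against 6.88% of genes, and in liver for 0 of 9 against 12.5%. The log2 fold change was -1.85 for Hspa1a (SE 0.804, unadjusted p 0.0497) and -1.94 for Hspa1b (SE 0.782, unadjusted p 0.0376), with 1.00 as the edgeR adjusted p of both after rounding. Without normal diet library 3 the values were -0.12 and -0.36, so the size of the difference rested on that library. Fos had the highest positive value, 1.08 (SE 0.573, unadjusted p 0.0948), and Jun went from -0.22 to 0.37 without normal diet library 3.

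By the 2-fold criterion, normal diet kidney library 3 held 3 of the 9 members (Jun, Hspa1a and Hspa1b), against 0.801% of all genes tested. No member met it in the other kidney libraries, against 4.27% (normal diet 1), 0.814% (normal diet 2), 0.612%, 2.83% and 0.782% (high salt 1 to 3) of genes. More than 2-fold below the rest of their diet lay Egr1 and Hspa1b in normal diet library 1 (14% of genes), Atf3 in high salt library 1 (0.839%), and Fos and Egr1 in high salt library 3 (1.48%). Of 39 other immediate early genes tested, 2 met it in library 3: Nr4a1, a nuclear receptor, at 2.95 CPM against 1.35 and 1.17 CPM, and Ccn1, a matrix protein, at 57.0 CPM against 10.9 and 25.9 CPM. Library 3 was the highest of the 6 for 16 of these 39 genes (41.0%), against 17% of all genes tested. Of 30 tested heat shock response genes, 0 met it in library 3, which was highest for 8 (26.7%). Normal diet library 1 was highest for 12 (40%), against 29.1% of all genes. Hsph1, for one, was at 59.0 CPM in library 3 and at 107 CPM in library 1. Neutrophil markers (6 of 8, as Ngp and Camp were at 0 or not among the rows) summed to 18.1 CPM in kidney library 3 and to 1.32 to 6.73 CPM in the other kidney libraries; their part was not tested.

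**Figure D4:**
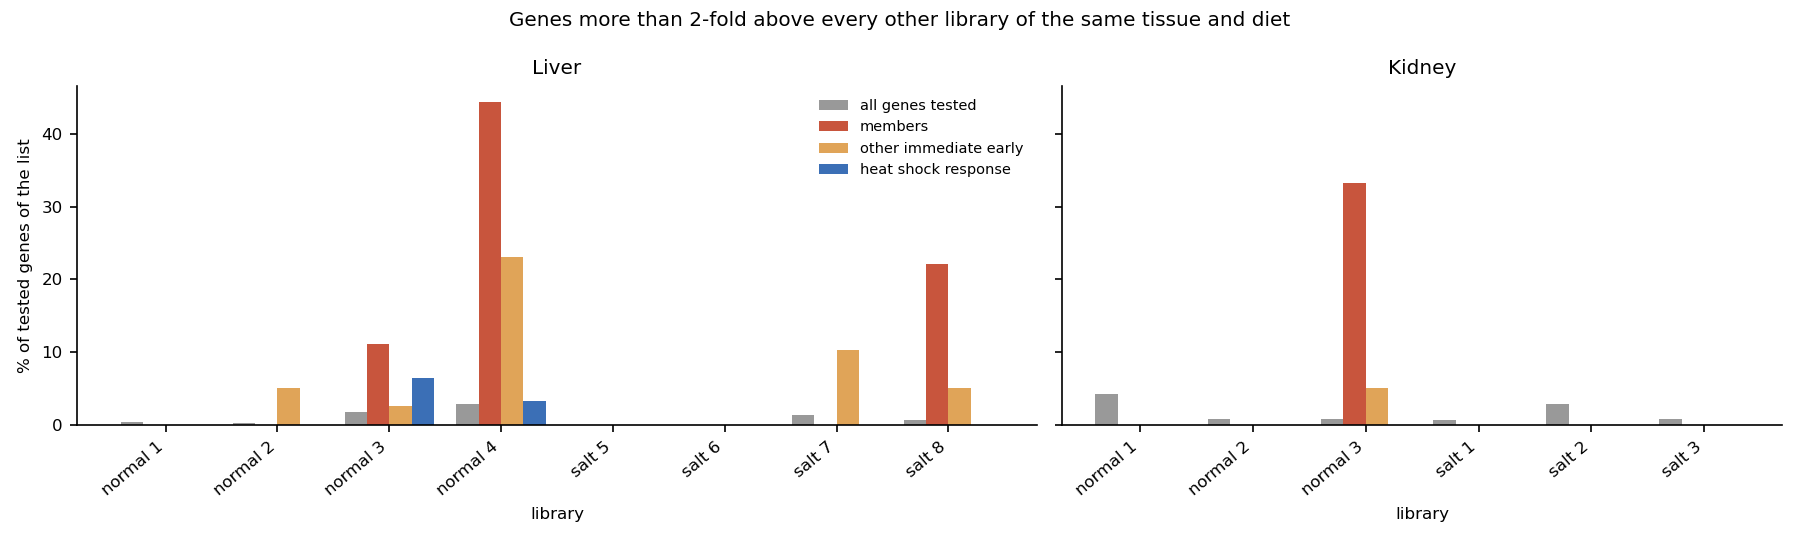
Share of tested genes that lay more than 2-fold above every other library of the same tissue and diet, by library, for all genes tested (grey), the 9 tested members (red), the other immediate early genes (orange) and the heat shock response genes (blue), in liver (left) and kidney (right). Members stand highest in normal diet liver library 4 (44.4%), normal diet kidney library 3 (33.3%) and high salt liver library HS8 (22.2%).

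The diet effect was compared between tissues as the difference of the kidney and liver fold changes in 1 edgeR fit of all 14 libraries. Of the 9 members 0 were called, against 0% of 16633 genes; 1681 genes had an unadjusted p under 0.05 and DESeq2 called 148 genes and no member. Hspa1a had a log2 difference of -3.86 (SE 1.15, unadjusted p 0.00423, adjusted p = 0.294) and Hspa1b of -2.62 (SE 1.07, unadjusted p 0.0267, adjusted p = 0.447). Without normal diet kidney library 3 these were -2.08 and -0.99 (adjusted p = 0.487 and 0.704). Across the alternatives run, the adjusted p of Hspa1a lay between 0.143 and 0.58. The other 7 differences lay between -0.08 (Jun) and 1.15 (Fos).

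Between tissues on the normal diet, mean levels of the heat shock members were higher in kidney and that of Ier2 was higher in liver. The sum of Hspa1a and Hspa1b was not tested between tissues, so their values here also rest on the split of shared reads. With scaling within each tissue, the sum was 1.54 to 13.6 CPM in normal diet livers. It was 7.92 to 98.5 CPM in normal diet kidneys, so the ranges overlapped. In the edgeR fit, with CPM scaled over all 14 libraries, 4 of 9 members were called, while 65.1% of all 16633 genes were. Hspa1a was at 0.327 ± 0.294 CPM in liver (SD, n = 4) and 9.99 ± 12.1 CPM in kidney (SD, n = 3), a log2 difference of 4.95 (SE 0.865, edgeR adjusted p = 0.000135). Ier2 was at 10.1 ± 3.10 CPM in liver and 1.47 ± 0.55 CPM in kidney, a log2 difference of -2.77 (SE 0.355, edgeR adjusted p = 6.6e-06). Both calls held without any 1 library, but Hspa1a was at 3.20 without normal diet kidney library 3 (edgeR adjusted p = 0.00147). Hspa1b was at 6.39 ± 6.06 and 24.3 ± 28.3 CPM, a log2 difference of 1.94 (SE 0.741, edgeR adjusted p = 0.0317), which was 0.33 and no longer called without normal diet kidney library 3. Junb was at 7.02 ± 7.46 and 2.20 ± 0.869 CPM, a log2 difference of -1.68 (SE 0.672, edgeR adjusted p = 0.0384), which was -0.61 and not called without normal diet liver library 4.

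The remaining members gave no call between tissues in this fit. Dusp1 had -1.53 (edgeR adjusted p = 0.0506) and was called in 7 of 19 alternatives: DESeq2, no filter, mitochondrial genes removed, and without normal diet liver library 1, HS5, HS6 or HS8 (adjusted p over all 19 from 0.00661 to 0.18). The values were Fos -0.92, Atf3 -0.51, Egr1 -0.26 and Jun 0.42; without liver library 4, Jun was at 1.38 and called (edgeR adjusted p = 0.00246). The scaling between tissues mattered. With TMM within each tissue the median of all genes moved from -0.02 to 0.49, the calls from 5354 higher and 5469 lower in kidney to 7200 and 3707, and the called members from 4 to 3, with Junb at -1.19 (edgeR adjusted p = 0.135). Under that scaling Egr1 and Atf3 changed sign, to 0.23 and 0.0015.

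Levels of different genes were compared as CPM per kilobase of exon. For Junb the length (2301 bases) came from the GENCODE M21 model, which is longer than the deposited one, so its values are understated. In liver on the normal diet the order was Dusp1 (9.66), Ier2 (5.54), Junb (2.63), Jun (2.32), Hspa1b (1.96), Egr1 (0.663), Atf3 (0.528), Fos (0.223), Hspa1a (0.0957) and Fosb (0.00607), in CPM per kilobase. Each pair of neighbours in that order overlapped over libraries. In kidney on high salt, where no member lay more than 2-fold above in 1 library, the order began with Dusp1 (4.24), Jun (3.80) and Hspa1b (2.76), and ended with Atf3 (0.61), Fos (0.36) and Fosb (0.0312). There Jun did not overlap Hspa1b, nor did Hspa1b overlap Ier2 (1.64) below it. On the normal diet Hspa1b led the kidney order with 10.6 ± 12.3 CPM per kilobase (SD, n = 3), which normal diet library 3 sets.

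The 2 HSP70 genes divided their reads differently in the 2 tissues. Hspa1a made up 1.84% to 14.3% of the pair in the 8 liver libraries (7.99% ± 4.22, SD) and 24.9% to 32.8% in the 6 kidney libraries (29.6% ± 2.82, SD). The ranges did not overlap, and a two-sided exact permutation test gave p = 0.000666. Any split without overlap gives this smallest p, and the test took all libraries as separate, HS5 and HS6 included. Within liver the share was 1.84% to 8.01% on the normal diet and 7.72% to 14.3% on high salt. In liver the lowest share came from a library with 77.7 counts for the pair, and in kidney the library with the high level, library 3, had a share of 29.7%, within the range of the others. The liver and kidney tables were deposited separately, and unequal RNA and an unequal assignment of shared reads cannot be told apart here.

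Other genes of the pathways were taken from lists. In liver 0 of 39 other immediate early genes were called by edgeR, with a median log2 fold change of -0.06 against -0.02 over all genes tested. The smallest unadjusted p-values belonged to Btg2, an antiproliferative gene (-1.93, SE 0.484, adjusted p = 0.0867), Nr4a2, a nuclear receptor (1.61, SE 0.497, adjusted p = 0.133), and Nfkbiz, an NF-kappa-B cofactor (-1.92, SE 0.906, adjusted p = 0.255). Btg2 was between 6.32 and 33.5 CPM on the normal diet and between 3.32 and 5.65 CPM on high salt. The diets thus did not overlap, as for 12.5% of liver genes tested. Nr4a2 was under 0.45 CPM in all 8 liver libraries.

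Of 31 heat shock response genes 1 was called lower on high salt in liver and 0 higher, against 1% of all genes tested in either direction, with a list median of -0.16. Hspb8, a small heat shock protein, fell by 0.90 on the log2 scale (SE 0.171, edgeR adjusted p = 0.0449). It was at 195 to 286 CPM on the normal diet and 109 to 131 CPM on high salt, with no overlap, as for 12.5% of liver genes. The call held in 11 of 21 alternatives, over which the value was -0.99 to -0.74 and the adjusted p 2.87e-05 to 0.178. It was lost with HS5 and HS6 summed, without normal diet libraries 1 and 2 together or either alone, without any 1 high salt library, with no filter on low counts, and with all 14 libraries in 1 fit. Of 21 upstream regulators 0 were called (median 0.15), with Rps6ka1, a kinase downstream of ERK, at 0.75 (SE 0.209, adjusted p = 0.108), Rps6ka3 at 0.54 (adjusted p = 0.194) and Atf4 at -0.49 (adjusted p = 0.209). Of 11 tested ATF4 and CHOP targets 0 were called (median -0.43). Vldlr, a lipoprotein receptor, had 1.95 (SE 0.424, adjusted p = 0.0661), Ddit4, an mTOR inhibitor, -1.77 (SE 0.418, adjusted p = 0.0754), and Atf5 0.75 (adjusted p = 0.152), and 6 of the 11 had an unadjusted p under 0.05 against 21.2% of all genes.

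In kidney 0 genes of these lists were called by edgeR. List medians were -0.07 for 39 other immediate early genes, -0.07 for 30 heat shock response genes, -0.09 for 21 upstream regulators and -0.00 for 9 ATF4 and CHOP targets, against -0.02 over all genes. The 1 gene of these lists with an unadjusted p under 0.05 was Hsp90aa1, the inducible HSP90 chaperone, at -0.53 (SE 0.213, unadjusted p 0.0379). Over all kidney genes tested, 2.01% had such a p. Hsp90aa1 was at 413, 321 and 449 CPM in normal diet libraries 1 to 3 and between 258 and 289 CPM on high salt. The diets did not overlap, which held for 6.88% of kidney genes tested. The next were Hspb1 at -0.94 (SE 0.473) and Hspa8 at -0.39 (SE 0.238). Klf4 (0.38), Mcl1 (-0.33), Ccn2 (-0.56), Trp53 (0.69), Rps6ka1 (0.64), Crem (-0.40), Vldlr (-0.30), Asns (-0.85) and Atf5 (-0.46) had the smallest unadjusted p-values of the other lists.

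**Figure D5:**
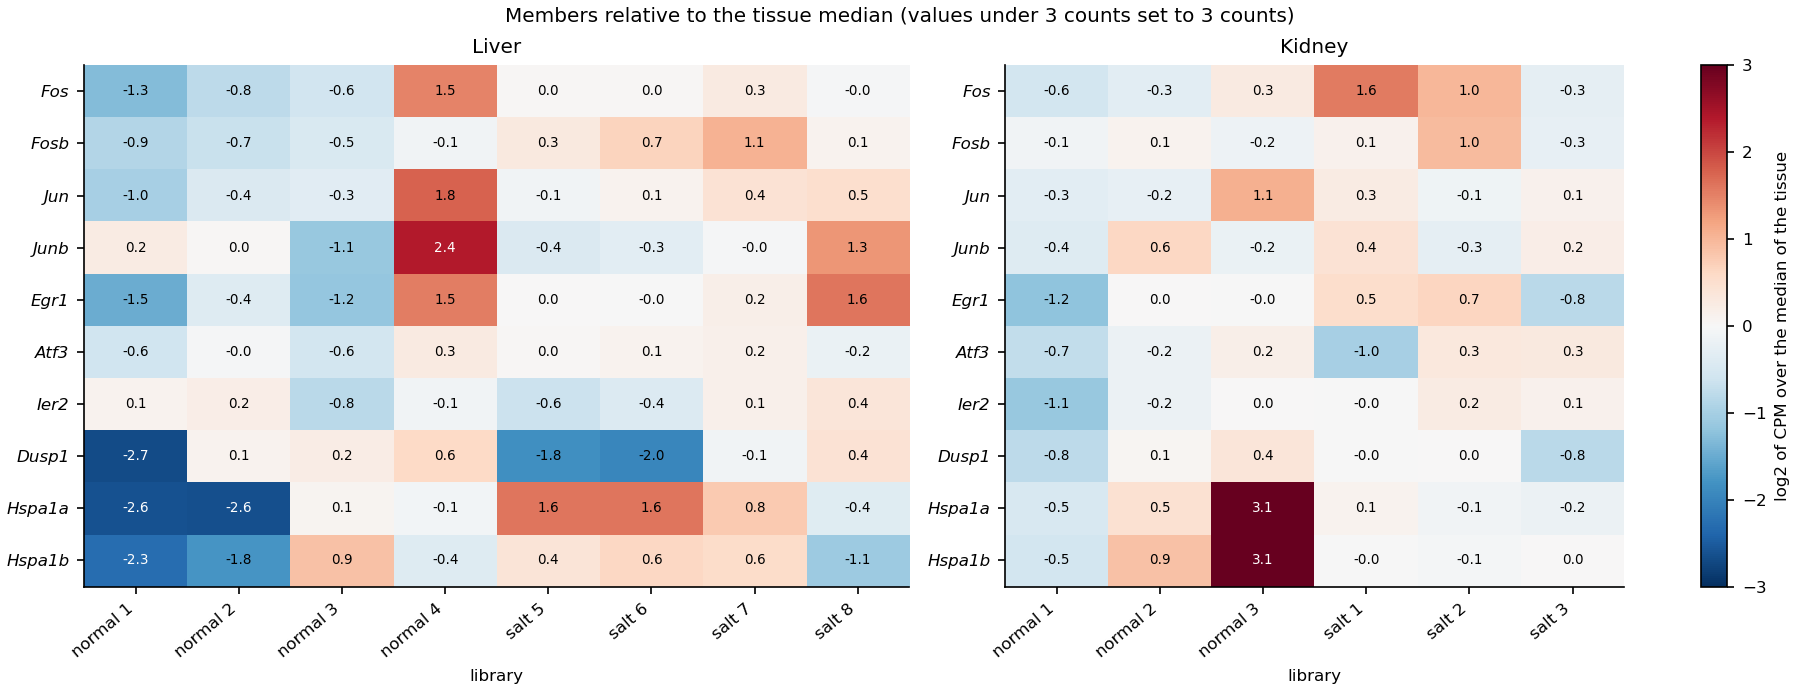
Log2 of each library's CPM over the median of its tissue, for the 10 members (rows) in 8 liver and 6 kidney libraries (columns); values under 3 counts are set to 3 counts, and red is above and blue below the median. Columns that stand out are normal diet liver library 4 for Jun and Junb (18.5 and 15.9 CPM), normal diet liver libraries 1 and 2 for low Hspa1a and Hspa1b, and normal diet kidney library 3 for both HSP70 genes (29.3 and 69.2 CPM).

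The mean log2 CPM of the 7 tested immediate early members ranked the liver libraries with normal diet library 4 (3.00) and HS8 (2.46) on top and normal diet library 1 (0.97) at the bottom. Among 12177 liver genes with a mean of at least 50 counts, the 5 with the highest Pearson correlation to this mean over the 8 libraries were Stxbp2 (0.97), AI413582 (0.95), Slpi (0.95), Nedd4l (0.93) and Trmt1 (0.92). For the mean of Hspa1a and Hspa1b, genes among those with the highest correlation were Rapgef5 (0.99), Rybp (0.98), Med13 (0.98) and Gna13 (0.98). In kidney, over 6 libraries and 11814 genes, the 5 highest were Cpne1, Gm10054, Gm14964, Gm7808 and Gm6883 (0.98 to 1.00) for the immediate early members and 0610009E02Rik, Hnrnph1, Slc30a6, Cldn16 and Map4k5 (0.96 to 0.98) for the HSP70 pair. These correlations describe the libraries, which share preparation, depth and the outlying samples above, and carry no test.

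Some models overlap other transcripts, and the sources used here do not say whether counting used the strand. Jun (chromosome 4) overlaps Junos on the other strand, which was at most 0.629 CPM in liver and 0.441 CPM in kidney. Hspa1a (chromosome 17) overlaps Gm20481, which was not used here, and the long model of Dusp1 (chromosome 17) overlaps Ergic1. Junb (chromosome 8, minus strand) has its 3′ end at base 84976910 in the deposited annotation and at 84974484 in GENCODE M21, whose longer model reaches the highly expressed Prdx2. The other members have the same lowest coordinate in both.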

How the data were processed

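Libraries were made from total RNA with a SMARTer mRNA kit, per the labels' protocols. The authors deposited expected counts per gene from a Partek expectation-maximisation quantification, per the file names. The submitters' processing notes name Partek 7.0, STAR 2.5.3a, DESeq2 and the build mm10, with no role or order. The authors also deposited normalized values, a linear signal per gene whose method is not given in the sources used here; these served 1 alternative only. Of the count table values 58.5% were whole numbers in liver and 64.2% in kidney, and every gene had a total of at least 10 counts. All per-sample columns were mapped (0 left out).

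Columns were matched to samples by title. For high salt liver a column name gives the group only, so these were replicates without a label number. Rounded expected counts entered edgeR 4.0.16 in R 4.3.3 (TMM, filterByExpr, quasi-likelihood, Benjamini-Hochberg adjustment over all genes tested, called under 0.05). Each tissue was fitted alone by diet. Tissue and tissue by diet were fitted on all 14 libraries. Replicates varied with a common biological coefficient of variation of 0.314 (liver) and 0.30 (kidney). Poisson intervals (95%) and the floor of 3 counts cover only the error of counting; reads had no molecular identifiers. Fits were tested on simulated data.

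The members and gene lists were chosen with earlier results of these data known. All members are named; from 4 other lists, genes called by diet or else the 3 with the smallest p-values in each tissue. Those genes that lay above 2-fold in 1 library were named after their values were seen. Promoters came from RefSeq (GRCm38.p6) and lengths from GENCODE M21. The alternatives tried were DESeq2 1.42.0, scaling by RLE or the upper quartile, limma 3.58.1 (voom with sample weights, and log2 of the deposited values plus a pseudocount of 1 or 0.1), dropping the filter, a minimum of 10 counts per library, 1 joint fit, mitochondrial genes removed, HS5 and HS6 summed, normal diet liver libraries 1 and 2 left out, Hspa1a and Hspa1b summed, a replicate block in kidney, and each library left out. The human transgene was not analysed here. A gene that the rule for likeness of pattern names is not reported here.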

Additional observations from a re-analysis of the deposited data

Results flagged for a closer look

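Within groups of 4 liver libraries, 6 of 20 member groups had 1 library farther from the rest than Dixon's 95% limit. The nominal rate of that limit would give about 1 if the groups were independent, which they are not. The same limit was passed for 5.56% of all genes tested in the normal diet group and 8.98% in the high salt group, and by a high value of normal diet library 4 for 2.19% and of HS8 for 1.53%. In normal diet library 4 these were Fos at 1.32 CPM, Jun at 18.5 CPM, Junb at 15.9 CPM and Egr1 at 7.71 CPM. In high salt library HS8 they were Junb at 7.77 CPM and Egr1 at 8.09 CPM. The groups share libraries, so these are not 6 separate events. Kidney groups of 3 were not examined in this way. Acute phase genes summed to 61636 CPM and neutrophil markers to 59.4 CPM in normal diet library 4, and to 1673 and 2.72 CPM in HS8. Kidney tubule markers (5 of 6) summed to 4.64 CPM in HS8 and 8.81 CPM in HS7, against 0.547 to 1.76 CPM in the other liver libraries. The 1 adipocyte marker measured, of 4 listed, was at 3.99 CPM in HS8 and at most 0.312 CPM in the other liver libraries. The part of any of these in the member values was not tested.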

How the results depend on the processing

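Of single-member values under alternatives other than leaving out a library, 286 kept their direction and their side of the threshold, 15 changed sign, 5 became called and 1 lost its call; with a library left out the numbers were 327, 38, 5 and 7. The cause was not tested where none is given. Voom with sample weights called 3 of 9 members by diet in liver against 0 in edgeR, but also 8284 of all 15130 genes. It gave log2 values of 0.89 for Fos, 0.64 for Jun and -0.51 for Ier2 in liver, and -0.015 for Junb and -0.17 for Atf3 in kidney. Limma on the deposited values gave 0.35 (pseudocount 0.1) and 0.32 (pseudocount 1) for liver Fos and 0.23 with both pseudocounts for liver Jun. Without normal diet liver libraries 1 and 2, Egr1 was at -0.12 and Hspa1b at -0.11. For the difference of diet effects, Atf3 was at 0.012 with DESeq2 and 0.015 with RLE scaling. Between tissues with TMM in each, Egr1 was at 0.23 and Atf3 at 0.0015. Leaving out 1 library gave these ranges in liver: Fos -0.39 to 0.93, Jun -0.46 to 0.81, Junb -1.23 to 0.48, Egr1 -0.11 to 1.54 and Ier2 -0.16 to 0.17. In kidney they were Jun -0.46 to 0.37, Junb -0.085 to 0.46, Atf3 -0.039 to 0.50 and Dusp1 -0.44 to 0.079. For the difference of diet effects they were Jun -1.03 to 0.55, Junb -0.36 to 1.29, Egr1 -0.98 to 0.63 and Atf3 -0.26 to 0.27. Between tissues the called members numbered 2 (without normal diet kidney library 3) to 5 (without HS5, HS6 or HS8), and the ranges were Fos -1.21 to 0.064, Jun -0.18 to 1.38 and Egr1 -0.55 to 0.78. The genes called by diet in liver, 152 in edgeR, numbered 1122 with DESeq2, 12 with HS5 and HS6 summed, 52 without normal diet libraries 1 and 2, 260 with all libraries in 1 fit, 8284 with voom, and 12 to 765 with 1 library left out.

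The labels do not say whether the kidney replicate numbers pair the libraries. Deviations from the group mean had correlations of 0.41, 0.37 and -0.09 in same-numbered libraries, and -0.47 to 0.39 in the others. Normal diet libraries 1 and 2 correlated best with their own number, and library 3 did not. With 3 libraries per diet such deviations depend on each other, so these values cannot decide whether the numbers pair the libraries. With the replicate block 0 members and 0 genes were called in kidney, 459 genes against 318 had an unadjusted p under 0.05, and Hspa1a was at -1.11 and Hspa1b at -1.21. Liver columns carry no shared numbers, so no block was fitted there. Low counts limit Fosb, Fos and liver Hspa1a most.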
